A study of Homo sapiens with 15 samples.

Results

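The globin genes encode the protein chains of haemoglobin, and their mRNA was followed here in K562 cells after loss of the HSP90α isoform, after loss of the HSP90β isoform and after resistance to the HSP90 inhibitor PU-H71. The members were the 10 human genes HBZ, HBE1, HBG1, HBG2, HBB, HBD, HBA1, HBA2, HBM and HBQ1, taken by gene symbol from the rows of 2 expression tables. The knockout table held 7 of them among 17769 genes with an identifier, and HBE1, HBB and HBM were not analysed there. The resistance table held all 10 among 60510 genes.

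K562 is an established BCR-ABL1+ chronic myeloid leukemia line, labelled as blood. In the knockout experiment, 3 empty vector (EV) libraries of wild-type genotype were compared with 3 HSP90α-KO and 3 HSP90β-KO libraries, none of them drug-treated. All these cells carried lentiviral Cas9, were sorted on a fluorescence marker and were selected as single clones, and a guide RNA is stated for all of them; the labels give this same text for the resistance samples too. In the resistance experiment, 3 libraries of PU-H71 resistant (PUHr) cells, obtained by long-term exposure to rising PU-H71 and clonal selection, were compared with 3 libraries of parental cells kept long-term in the solvent DMSO. Both are labelled WT, although the study describes a gained mutation and extra copies of HSP90AA1 in PUHr cells, so resistance and these changes cannot be told apart. The labels do not say how many clones stand behind a group, so an effect of the isoform or of resistance and a difference between clones cannot be told apart. The study calls its replicates independent, but the labels do not state that they were separate cultures; if they were not, the p-values measure technical spread only. In bulk RNA, fewer cells that make globin and less globin RNA per cell cannot be told apart.

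Each haemoglobin molecule joins α-like chains, encoded on chromosome 16, with β-like chains, encoded on chromosome 11. Both clusters are used in developmental order: HBZ and HBE1 in the embryo, HBG1 and HBG2 in the fetus together with HBA1 and HBA2, and HBB with a little HBD in the adult. K562 is known as a line that makes embryonic and fetal globins and almost no HBB, and it has long served to study the switch between them, in which BCL11A is the best known silencer of the fetal genes.

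Depth was 19594381 to 26216730 reads on listed genes in the knockout table and 21584840 to 24477692 in the resistance table. HSP90AA1, which encodes HSP90α, fell by 2.96 on the log2 scale in HSP90α-KO (adjusted p = 2.6e-30, limma). HSP90AB1, which encodes HSP90β, fell by only 0.55 on that scale in HSP90β-KO (adjusted p = 1.3e-15), a smaller loss of mRNA. In PUHr HSP90AA1 was at 1568 CPM (reads scaled to library size by the authors' normalization) against 1712 in parental cells (-0.13, SE 0.02, adjusted p = 4.7e-05). Of 16 erythroid markers, 13 were in the knockout table, and none of these was at or below 3 reads. Their summed level ranged from 1072 to 1110 CPM in EV, from 961.4 to 992.9 in HSP90α-KO and from 987.5 to 999 in HSP90β-KO. All 16 were in the resistance table, with EPB42 at or below 3 reads in both groups and CD36 in PUHr, and they summed to between 1751 and 1773 CPM in parental and between 1846 and 1871 in PUHr cells. Markers of other blood lineages were low, but moved: the summed T and NK cell markers ranged from 10.94 to 11.63 CPM in EV, from 6.151 to 6.579 in HSP90α-KO and from 21.1 to 22.74 in HSP90β-KO, and the granulocyte and monocyte markers from 41.02 to 45.69, from 60.19 to 65.58 and from 30.76 to 32.68 CPM. In the same order the megakaryocytic markers ranged from 16.58 to 17.02, from 14.84 to 17.51 and from 11.64 to 12.2 CPM, and the B cell markers from 5.658 to 7.181, from 4.93 to 5.854 and from 4.53 to 6.486 CPM. In PUHr all 4 of these sums lay below every parental library: T and NK cell markers at 8.864 to 9.432 CPM against 11.77 to 12.29, B cell markers at 2.129 to 2.18 against 3.523 to 4.034, megakaryocytic markers at 11.83 to 13.98 against 15.34 to 16.46, and granulocyte and monocyte markers at 23.82 to 25.8 against 28.58 to 31.12. The knockout table held 4 of 8 T and NK cell and 2 of 8 granulocyte and monocyte markers. It held 4 of 12 megakaryocytic and 2 of 5 B cell markers. FLI1 was at or below 3 reads in all its groups, PPBP in both knockouts and CD3G in HSP90α-KO. In PUHr 4, 4, 6 and 4 markers of these lists were at or below 3 reads, in the same order. These sums thus describe the few genes counted. Their part in the globin results was not tested.

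The β-like members lie on the minus strand of chromosome 11 (GRCh38; GENCODE canonical transcripts): HBB at chr11:5225464-5227071, HBD at chr11:5232838-5234483, HBG1 at chr11:5248269-5249857, HBG2 at chr11:5253188-5254781 and HBE1 at chr11:5268345-5269945. The α-like members lie on the plus strand of chromosome 16: HBZ at chr16:152644-154503, HBM at chr16:165978-166764, HBA2 at chr16:172876-173710, HBA1 at chr16:176680-177522 and HBQ1 at chr16:180459-181179. All are protein-coding genes with 3 exons in these transcripts. The RefSeq promoter table (GRCh38.p14) held 2 of the 10 members, HBD and HBM. Both are shown because the table holds only these members: HBD was counted in every library, and HBM gave 1 read in all over the 6 libraries of the resistance table. The 250 bases before each start are written 5′ to 3′ on the gene's strand (HBD chr11:5234484-5234733, minus; HBM chr16:165728-165977, plus), with capitals marking the first match of a searched motif on either strand.
HBD: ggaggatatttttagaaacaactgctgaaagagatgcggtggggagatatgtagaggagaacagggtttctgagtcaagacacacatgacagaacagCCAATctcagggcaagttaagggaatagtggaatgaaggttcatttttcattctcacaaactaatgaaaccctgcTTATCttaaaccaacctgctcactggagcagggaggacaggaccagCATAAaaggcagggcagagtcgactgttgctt
HBM: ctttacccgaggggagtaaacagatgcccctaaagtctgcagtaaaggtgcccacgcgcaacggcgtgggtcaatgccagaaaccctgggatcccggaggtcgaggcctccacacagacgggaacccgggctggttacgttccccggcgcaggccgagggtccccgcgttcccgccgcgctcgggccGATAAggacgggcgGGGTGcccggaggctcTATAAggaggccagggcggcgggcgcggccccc
The motifs searched, on both strands, were GATAA, with GATAG, as the letters that GATA factors bind, CCAAT for the CCAAT box, CACCC for the box that KLF factors bind, TATAA for the TATA box, with the variant CATAA. HBD held GATAA 78 bases before the start, read as TTATC on its own strand. It also held CCAAT 153 bases and CATAA 32 bases before the start. HBM held GATAA 63, CACCC 49 (as GGGTG) and TATAA 33 bases before the start. In all 35116 promoters, cut to the same length, GATAA occurred in 20.4%, GATAG in 15.9%, CCAAT in 32.0%, CACCC in 54.7%, TATAA in 18.9% and CATAA in 21.7%. GATAG was in neither window, and these matches describe letters only.

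How much of each globin mRNA could be counted at all differed between members. Each canonical transcript was cut into all windows of 76 bases, the read length. Windows whose exact sequence occurred elsewhere in the globin loci, or that touched an exon of another listed gene on the same strand, were set apart. For HBD, HBB and HBM, 99.3%, 99.5% and 99.5% of windows were found in the gene alone, and for HBQ1 100%. For HBZ this was 60.6%. For HBG1 it was 14.8% and for HBG2 15.7%, since the γ genes are near-identical copies and an annotated gene overlaps them. For HBA1 it was 19.3% and for HBA2 19.2%, since 80.7% and 80.8% of their windows had an exact copy elsewhere in the loci. For HBE1 it was 0%: all 548 windows touched ENSG00000239920, a read-through gene at chr11:5254392-5678434 that itself held 5 to 31 reads per library. So the level of HBE1 cannot be read from these tables, the embryonic share below is in effect that of HBZ, and values that split HBG1 from HBG2 or HBA1 from HBA2 are uncertain and can understate their level.

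K562 EV cells carried all 7 globins of the knockout table, led by HBG1. HBG1, a γ chain gene, was at 54.3, 62.1 and 57.0 CPM in EV replicates 1 to 3. HBZ, the embryonic ζ chain gene, was at 38.9, 45.2 and 43.8 CPM, and HBA1, an adult α chain gene, at 26.0, 31.0 and 28.5 CPM. Compared per kb of transcript, the mean levels in EV were 98.4 CPM per kb for HBG1, 53.4 for HBZ, 49.4 for HBA1, 32.9 for HBQ1, 25.7 for HBG2, 12.2 for HBD and 4.90 for HBA2. The HBZ and HBA1 libraries overlapped in this order, and all other neighbours were apart. Per countable window HBG1 stayed first with 0.76 CPM per window, but HBA1 (0.29) and HBG2 (0.19) lay above HBZ (0.097). All members together took 0.0172% ± 0.00092 of the EV reads (SD, n = 3).

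Parental cells of the resistance experiment held more globin RNA, although the tables were normalized separately and no test was made across them: the sum was 905 ± 23.1 CPM (SD, n = 3), against 172 ± 9.20 CPM in EV. Per kb, HBG1 led with 552 CPM per kb, followed by HBZ (412), HBA1 (198), HBG2 (159), HBD (32.3), HBA2 (21.8), HBQ1 (20.6) and HBB (2.72). HBA2 and HBQ1 overlapped between libraries. Per countable window HBG1 (4.26 CPM per window) was again followed by HBA1 (1.18) and HBG2 (1.17), ahead of HBZ (0.75). The HBA1 and HBG2 libraries overlapped in this order. HBB, the adult β chain gene, was at only 32 to 46 reads per parental library. HBE1 had 1 to 4 reads there and 0 or 1 in PUHr, and HBM had 0 reads in all parental libraries, which allows up to 0.126 to 0.141 CPM per library. HBE1 and HBM were too low to be tested.

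All globins that were measured were lower in HSP90α-KO than in EV cells. The summed globin level was 163, 181 and 171 CPM in EV and 104, 105 and 96.8 CPM in HSP90α-KO. The groups did not overlap, and the log2 of the sum fell by 0.75, which is 1.69-fold (two-sided exact permutation p = 0.1, the smallest that 3 against 3 libraries allow). All 7 members passed an adjusted p of 0.05 in the lower direction, where 26.6% of all tested genes did (27.5% in the higher direction). With the study's threshold of a log2 change beyond 1 added, 4 of 7 were called lower (HBG2, HBD, HBZ and HBA2) and 0 higher, against 5.01% and 5.32% of all genes. The median change of the members was -1.04, against -0.01 for all genes tested.

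Among the β-like genes, HBG2 was at 15.7, 15.4 and 14.0 CPM in EV and at 5.08, 7.20 and 7.14 CPM in HSP90α-KO. The change was -1.22 (SE 0.10, adjusted p = 1.5e-10), or 2.33-fold lower. HBG1, its near-identical neighbour, was at 35.1, 37.1 and 32.2 CPM in HSP90α-KO, with a smaller change of -0.73 (SE 0.05, adjusted p = 6.3e-12). Both copies were lower in every HSP90α-KO library than in every EV library. The ratio of HBG1 to HBG2 CPM was 3.85 ± 0.35 in EV and 5.53 ± 1.24 in HSP90α-KO (SD, n = 3), from the part of their sequence that tells them apart.

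HBD, the minor adult β-like δ chain gene, was at 8.51, 7.18 and 6.98 CPM in EV and at 3.17, 3.26 and 4.26 CPM in HSP90α-KO. Its change of -1.07 (SE 0.12, adjusted p = 2.8e-08) was close to the threshold: without EV replicate 1 it was -0.98 and without HSP90α-KO replicate 1 it was -0.996, and HBD was then no longer called. HBBP1, the transcribed pseudogene of the cluster, changed by -1.31 (SE 0.21, adjusted p = 6.6e-06). BGLT3, a noncoding RNA between HBBP1 and HBG1, changed by -1.22 (SE 0.15, adjusted p = 9.0e-08). Of these transcripts of the β cluster, 2 of 2 tested were called lower, against 5.01% of all genes. In HSP90α-KO, HBBP1 rested on 13 to 29 reads per library and BGLT3 on 28 to 38. Of the HBBP1 windows, 24.2% touched an exon of HBD.

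Among the α-like genes, HBZ was at 20.94, 20.83 and 19.97 CPM in HSP90α-KO, below the 38.9 of the lowest EV library. Its change was -1.04 (SE 0.06, adjusted p = 2.1e-14). HBA2 was at 3.00, 2.99 and 2.48 CPM in EV and at 1.12, 1.30 and 0.821 CPM in HSP90α-KO, on 16 to 25 reads per library. Its change was -1.33 (SE 0.19, adjusted p = 1.4e-06). HBA1, the copy with far more assigned reads, was at 25.8, 22.3 and 21.0 CPM and changed by -0.31 (SE 0.07, adjusted p = 7.9e-04), with its highest HSP90α-KO library just below the lowest of EV. HBQ1, which encodes the θ chain of unclear function, was at 16.8, 17.6 and 17.7 CPM in EV and at 12.8, 12.7 and 11.3 in HSP90α-KO, a change of -0.50 (SE 0.07, adjusted p = 1.1e-06).

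In HSP90β-KO cells HBZ and HBA2 were lower than in EV, while the fetal genes overlapped EV and did not pass the test. No member passed both thresholds (0 of 7, against 2.65% of all genes lower and 1.83% higher), and 3 of 7 fell on the adjusted p alone (17.2% of all genes lower, 17.2% higher). The median change of the members was -0.02, against 0.002 for all genes. Without adjustment the same 3 of 7 had p under 0.05 by limma. HBZ was at 25.5, 26.5 and 27.8 CPM, below every EV library, with a change of -0.68 (SE 0.06, adjusted p = 3.8e-10). HBA2 was at 1.57, 1.58 and 1.54 CPM and changed by -0.81 (SE 0.19, adjusted p = 0.0015). HBD was at 5.87, 6.02 and 6.14 CPM, below the EV libraries, and changed by -0.32 (SE 0.12, adjusted p = 0.041), a pass lost on leaving out any of 5 single libraries, with an adjusted p of up to 0.21 without EV replicate 1.

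HBG1 was at 60.6, 61.7 and 57.4 CPM in HSP90β-KO, within the range of EV, and its log2 change was 0.05 (SE 0.05, adjusted p = 0.48). HBG2 differed by -0.02 (SE 0.10, adjusted p = 0.90), HBA1 by -0.02 (SE 0.07, adjusted p = 0.84) and HBQ1 by 0.01 (SE 0.07, adjusted p = 0.93). The libraries of these 4 genes overlapped those of EV. The summed level was 156, 156 and 151 CPM, a log2 change of -0.15 that kept the groups apart (exact permutation p = 0.1); per countable window the change was -0.03 (exact permutation p = 0.6), and without HBA1, HBA2, HBG1 and HBG2 it was -0.43 (exact permutation p = 0.1).

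Setting the knockouts beside each other, all 7 members were lower in HSP90α-KO than in HSP90β-KO on the adjusted p alone (29.8% of all genes were, and 30.1% were higher), and 1 of 7, HBG2, was called (5.57% of all genes lower, 7.14% higher). The median of the members was -0.52, against -0.01 for all genes. The HBG2 difference was -1.20 (SE 0.10, adjusted p = 1.5e-10), with 13.3 CPM in the lowest HSP90β-KO and 7.20 in the highest HSP90α-KO library. HBG1 differed by -0.78 (SE 0.05, adjusted p = 1.0e-12) and HBD by -0.75 (SE 0.12, adjusted p = 6.6e-06). HBQ1 differed by -0.51 (SE 0.07), HBZ by -0.37 (SE 0.06) and HBA1 by -0.28 (SE 0.07), all with an adjusted p of at most 0.0015. HBA2 differed by -0.52 (SE 0.19, adjusted p = 0.021), which was 0.13 without HSP90α-KO replicate 3. HBBP1 was called lower as well (-1.38, SE 0.21, adjusted p = 2.5e-06).

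In PUHr cells the adult and fetal globins were lower than in parental cells, while HBZ overlapped between the groups. Of the 8 tested members, HBB passed the filter on low values only through the parental group, so it had to differ and is not counted. Of the other 7, 5 fell on the adjusted p alone (25.8% of all genes fell, 25.6% rose), and 1, HBA2, was called lower, against 4.69% of all genes (5.37% were called higher). The median change of these 7 was -0.66, against 0.005 for all genes. The summed level was 919, 919 and 879 CPM in parental cells and 665, 704 and 630 CPM in PUHr, a log2 change of -0.44 (1.36-fold, exact permutation p = 0.1, groups apart). Its size depended on how the copies that share sequence were weighed: it was -0.03 without HBA1, HBA2, HBG1 and HBG2 (exact permutation p = 0.9) and -0.71 per countable window (exact permutation p = 0.1).

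HBA2 was at 12.7, 13.4 and 11.5 CPM in parental and 2.77, 2.47 and 3.03 CPM in PUHr cells. It fell by 2.15 on the log2 scale (SE 0.11, adjusted p = 4.6e-10), which is 4.45-fold. HBA1 was at 117, 117 and 109 CPM in parental and 86.0, 81.8 and 82.4 CPM in PUHr cells, a change of only -0.45 (SE 0.04, adjusted p = 6.0e-08). The ratio of HBA1 to HBA2 CPM accordingly went from 9.14 ± 0.37 to 30.5 ± 3.00 (SD, n = 3), and in the knockout table from 10.2 ± 1.42 in EV to 21.9 ± 4.28 in HSP90α-KO and 17.9 ± 1.25 in HSP90β-KO. In each of these 3 comparisons the ratios of the groups did not overlap, and they rest on the fifth or less of either transcript that tells the copies apart.

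HBG1 was at 337, 320 and 315 CPM in parental and 179, 161 and 157 CPM in PUHr cells, a change of -0.97 (SE 0.04, adjusted p = 8.2e-11), just inside the fold threshold; without PUHr replicate 1 it was -1.02 and HBG1 was called. HBG2 was at 91.2, 99.1 and 89.4 CPM in parental and 61.3, 60.0 and 56.0 CPM in PUHr cells, a change of -0.66 (SE 0.04, adjusted p = 1.2e-08). Here HBG1 had the larger change of the pair, and the HBG1 to HBG2 ratio was 3.48 ± 0.23 in parental and 2.80 ± 0.12 in PUHr cells. HBD was at 21.3, 19.4 and 19.5 CPM and at 13.0, 12.2 and 12.7 CPM, a change of -0.66 (SE 0.06, adjusted p = 6.0e-07). HBB went from 40, 46 and 32 reads to 9, 4 and 4 reads; no fitted change is given at this depth.

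HBZ was at 328, 336 and 322 CPM in parental and 312, 369 and 305 CPM in PUHr cells. The groups overlapped and the log2 change was -0.003 (SE 0.05, limma adjusted p = 0.96). With single libraries left out the HBZ change ranged from -0.089 to 0.048, and it passed the adjusted p without PUHr replicate 2. HBQ1 was at 10.1, 11.7 and 10.8 CPM in parental and at 9.96, 17.6 and 12.7 CPM in PUHr cells, where PUHr replicate 2 was the highest for both genes. Its change of 0.26 (SE 0.15, adjusted p = 0.15) did not pass and rested on single libraries: it was 0.46 without PUHr replicate 1 (adjusted p = 0.0050) and 0.047 without PUHr replicate 2 (adjusted p = 0.71). Per kb, HBZ took the first place in PUHr (412 CPM per kb) ahead of HBG1 (282), HBA1 (145) and HBG2 (101), while HBQ1 (25.4) and HBD (20.4) overlapped. Per countable window HBG1 was first in PUHr too, with 2.18 CPM per window, ahead of HBA1 (0.86), HBZ (0.75) and HBG2 (0.74). The HBZ and HBG2 libraries overlapped in this order. HBBP1 (-0.76, SE 0.12, adjusted p = 7.5e-05) and BGLT3 (-0.94, SE 0.08, adjusted p = 8.1e-08) fell in PUHr.

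As shares of all globin CPM, embryonic, fetal and adult transcripts shifted differently in the 3 cell models. In EV, 24.8% ± 0.92 of globin CPM was embryonic, 42.4% ± 0.65 fetal and 22.7% ± 0.36 adult (SD, n = 3), and the rest came from HBQ1. Per countable window the EV shares were 6.84% ± 0.29 embryonic, 66.7% ± 0.58 fetal and 23.7% ± 0.37 adult, so the embryonic class lay below the adult one there, as it did in both knockouts (5.42% against 29.4% in HSP90α-KO, 4.38% against 22.8% in HSP90β-KO). In HSP90α-KO the embryonic share was 20.2% ± 0.39, lower by 4.59 percentage points, and the adult share 27.2% ± 1.63, higher by 4.53 points, both without overlap (exact permutation p = 0.1 each). The fetal share was 40.5% ± 1.85, lower by 1.89 points with overlapping libraries (exact permutation p = 0.2). This value moved with the weighing: it was -2.70 points per kb and -4.68 per countable window (exact permutation p = 0.1 each), and -0.94 without HSP90α-KO replicate 1. The embryonic difference was -1.43 points per countable window (exact permutation p = 0.1). Within the adult share, HBA1 took 22.6% ± 1.89 against 16.6% ± 0.59 in EV, HBA2 1.05% ± 0.19 against 1.65% ± 0.19 and HBD 3.52% ± 0.76 against 4.42% ± 0.69, so that of these only the HBA1 share was higher. Without the HBA and HBG copies the adult share, then HBD alone, was 1.43 points lower (exact permutation p = 0.5).

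In HSP90β-KO the embryonic share was 17.2% ± 1.11 (SD, n = 3), lower than EV by 7.57 points, and the fetal share 48.4% ± 1.27, higher by 5.96 points, both without overlap (exact permutation p = 0.1 each). Per countable window these differences were -2.46 and 3.34 points (exact permutation p = 0.1 each). The fetal genes themselves had mean levels near those of EV: 59.9 against 57.8 CPM for HBG1 and 14.9 against 15.0 CPM for HBG2. The adult share of 23.0% ± 0.97 differed from EV by 0.39 points (exact permutation p = 0.6). Within it, HBA1 and HBA2 took 19.2% ± 1.12 against 18.2% ± 0.49 in EV, and HBD 3.89% ± 0.16 against 4.42% ± 0.69. Against HSP90β-KO, HSP90α-KO had 2.98 points more embryonic, 7.85 points less fetal and 4.14 points more adult globin (exact permutation p = 0.1 each). Per countable window the embryonic difference was 1.03 points and the adult one 6.65 points (exact permutation p = 0.1 each), while without the HBA and HBG copies the adult difference turned to -2.19 points (exact permutation p = 0.2).

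In parental cells the embryonic share was 36.3% ± 0.53, the fetal 46.1% ± 0.47 and the adult 16.4% ± 0.26 (SD, n = 3). In PUHr the embryonic share was 49.3% ± 2.80, higher by 13.0 points, the fetal 33.8% ± 2.40, lower by 12.3 points, and the adult 14.9% ± 1.02, lower by 1.51 points, all without overlap (exact permutation p = 0.1 each). The mean HBZ level was 329 CPM in both groups, so the higher embryonic share is not a higher HBZ level. Without PUHr replicate 2 the adult difference was -0.92 points. Most of the adult share was HBA1 and HBA2, with 14.0% ± 0.24 in parental and 13.0% ± 0.87 in PUHr cells. The adult β-like genes HBB and HBD took 2.40% ± 0.09 and 1.94% ± 0.16. On CPM the leading class was fetal in parental and embryonic in PUHr cells, but per countable window the fetal class led in both, with 71.9% ± 0.36 in parental and 63.3% ± 1.68 in PUHr, against 9.94% ± 0.21 and 16.3% ± 1.69 embryonic (SD, n = 3). Per window the embryonic share was thus higher by 6.35 points, the fetal share changed by -8.61 points and the adult share was higher by 1.93 points (exact permutation p = 0.1 each), so the direction of the adult share depends on how the shared copies are weighed. Without the HBA and HBG copies the embryonic share was higher by only 1.64 points (exact permutation p = 0.1).

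The balance of α-like over β-like CPM was 1.14 ± 0.05 in EV, 1.27 ± 0.11 in HSP90α-KO and 0.914 ± 0.04 in HSP90β-KO (SD, n = 3). It was 1.06 ± 0.02 in parental and 1.81 ± 0.20 in PUHr cells. Each difference from the control was without overlap (log2 change 0.16, -0.31 and 0.76, exact permutation p = 0.1 each). The HSP90α-KO value was 0.093 without HSP90α-KO replicate 1 and 0.31 per countable window, and without the HBA and HBG copies the knockout values were 0.22 and -0.12 (exact permutation p = 0.4 each). HBZ per γ globin, the ratio of the embryonic to the fetal genes, was 0.585 ± 0.030 in EV, 0.500 ± 0.027 in HSP90α-KO, 0.357 ± 0.032 in HSP90β-KO, 0.788 ± 0.019 in parental and 1.47 ± 0.19 in PUHr cells. These ratios do not depend on the total globin level, but on which reads the copies could claim.

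Named regulators of the switch were followed on lists of silencers, activators and fetal RNA-binding proteins. Genes that passed the filter on low values through only 1 of the groups compared had to differ, so they are given in reads and left out of the counts. Of 30 other silencers of fetal and embryonic globin, 1 was called lower (SOX6) and 1 higher (MYB) in HSP90α-KO, with 5 lower and 13 higher on the adjusted p alone and a median change of 0.08. These counts, and those of the other lists, stand against the shares of all genes: 5.01% were called lower and 5.32% higher in HSP90α-KO, and 4.69% and 5.37% in PUHr, while 26.6%, 27.5%, 25.8% and 25.6% passed on the adjusted p alone, in the same order. The lists are described by their genes, and nothing is read from the few calls in each. BCL11A, a zinc-finger repressor of the γ genes, had 212, 233 and 287 reads in EV and 3, 3 and 1 in HSP90α-KO. It was near absent there, and had 252, 326 and 323 reads in HSP90β-KO. Its part in the globin levels was not tested. SOX6, which acts with BCL11A, was at 19.9 to 20.5 CPM in EV, 2.00 to 2.49 in HSP90α-KO and 19.3 to 20.5 in HSP90β-KO (HSP90α-KO against EV -3.13, SE 0.09, adjusted p = 8.4e-21). MYB, a factor of erythroid precursors that holds γ globin low, was at 198 CPM in EV and 412 in HSP90α-KO (1.06, SE 0.03, adjusted p = 6.5e-21). ZBTB7A, the other main γ repressor, was at 31.5 and 36.3 CPM (0.20, SE 0.06, adjusted p = 0.0050).

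In PUHr, 0 of 30 silencers were called lower by limma and 1 higher, with 9 lower and 8 higher on the adjusted p alone and a median of -0.04. BCL11A was again near absent, with 106, 141 and 119 reads in parental and 1, 0 and 1 in PUHr cells. BCL11A passed the filter only through EV, HSP90β-KO and parental cells, so neither a fitted fold nor a p is given. NR2F2, a nuclear receptor that represses the embryonic and fetal genes, was the 1 called higher, with 63.0 CPM in parental and 143 in PUHr cells (1.18, SE 0.04, adjusted p = 1.8e-12). NR2F2 was at 39.4 CPM in EV, 29.6 in HSP90α-KO and 73.3 in HSP90β-KO, and was called lower in HSP90α-KO against HSP90β-KO (-1.30, SE 0.04, adjusted p = 2.6e-19), as was SOX6. SOX6 changed by -0.21 in PUHr (SE 0.07, adjusted p = 0.024), MYB by -0.44 (SE 0.02, adjusted p = 1.2e-09) and ZBTB7A by -0.06 (SE 0.05, adjusted p = 0.40).

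Of 22 activators, LDB1 was the 1 called in HSP90α-KO, higher by 1.08 (SE 0.04, adjusted p = 1.5e-18), with 7 lower and 10 higher on the adjusted p alone and a median change of the list of 0.07. LDB1 joins the distant enhancers of the globin clusters to the genes, and was at 150 CPM in EV and 317 in HSP90α-KO. Against HSP90β-KO, LDB1 (1.19) and its partner LMO2 (1.04) were called higher. GATA1, the master factor of red cell genes, was at 181 CPM in EV, 205 in HSP90α-KO and 148 in HSP90β-KO. KLF1, needed above all for HBB, was at 57.5, 68.2 and 36.5 CPM in the same order, and changed by -0.65 in HSP90β-KO (SE 0.05, adjusted p = 2.1e-10). In PUHr none of the 22 was called by limma (6 lower and 5 higher on the adjusted p alone, median 0.0005), GATA1 changed by -0.26 (SE 0.03, adjusted p = 4.1e-06) and KLF1 by -0.35 (SE 0.07, adjusted p = 0.0012).

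Of 6 fetal RNA-binding and related genes tested, LIN28A and HMGA2 are left out of the counts in HSP90α-KO; 0 of the other 4 were called there by limma, 1 was lower and 2 were higher on the adjusted p alone, and their median change was 0.08. LIN28A, which keeps fetal traits by blocking let-7 maturation, had 5 to 6 reads in EV, 40 to 63 in HSP90α-KO and 2 to 7 in HSP90β-KO, and passed the filter only through HSP90α-KO in the knockout table. HMGA2, a let-7 target, had 8 to 14, 3 to 6 and 21 to 22 reads in the same order, and passed the filter mainly through HSP90β-KO. In PUHr none of the 5 tested was called by limma (4 lower and 1 higher on the adjusted p alone, median -0.09), and LIN28A was at 3.68 CPM in parental and 2.39 in PUHr cells (-0.61, SE 0.14, adjusted p = 0.0017).

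Genes that supply haem or assemble haemoglobin were counted against the shares of all genes given above for each comparison. Of 23 tested in the knockout table, ALAS2 was the 1 called in HSP90α-KO, with 10 lower and 8 higher on the adjusted p alone, and the median change of the list was -0.04. ALAS2, the erythroid enzyme of the first step of haem synthesis, was at 204 CPM in EV, 69.4 in HSP90α-KO and 152 in HSP90β-KO (HSP90α-KO against EV -1.56, SE 0.03, adjusted p = 5.5e-23). In PUHr, AHSP left out, 0 of 23 were called lower by limma and 1 higher (7 lower and 6 higher on the adjusted p alone, median -0.0012). ALAS2 went the other way there, from 125 CPM in parental to 250 in PUHr cells (1.01, SE 0.03, adjusted p = 1.7e-12). AHSP, the chaperone of free α chains, had 22, 17 and 14 reads in parental and 1, 1 and 0 in PUHr cells, and passed the filter only through the parental group.

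**Figure D1:**
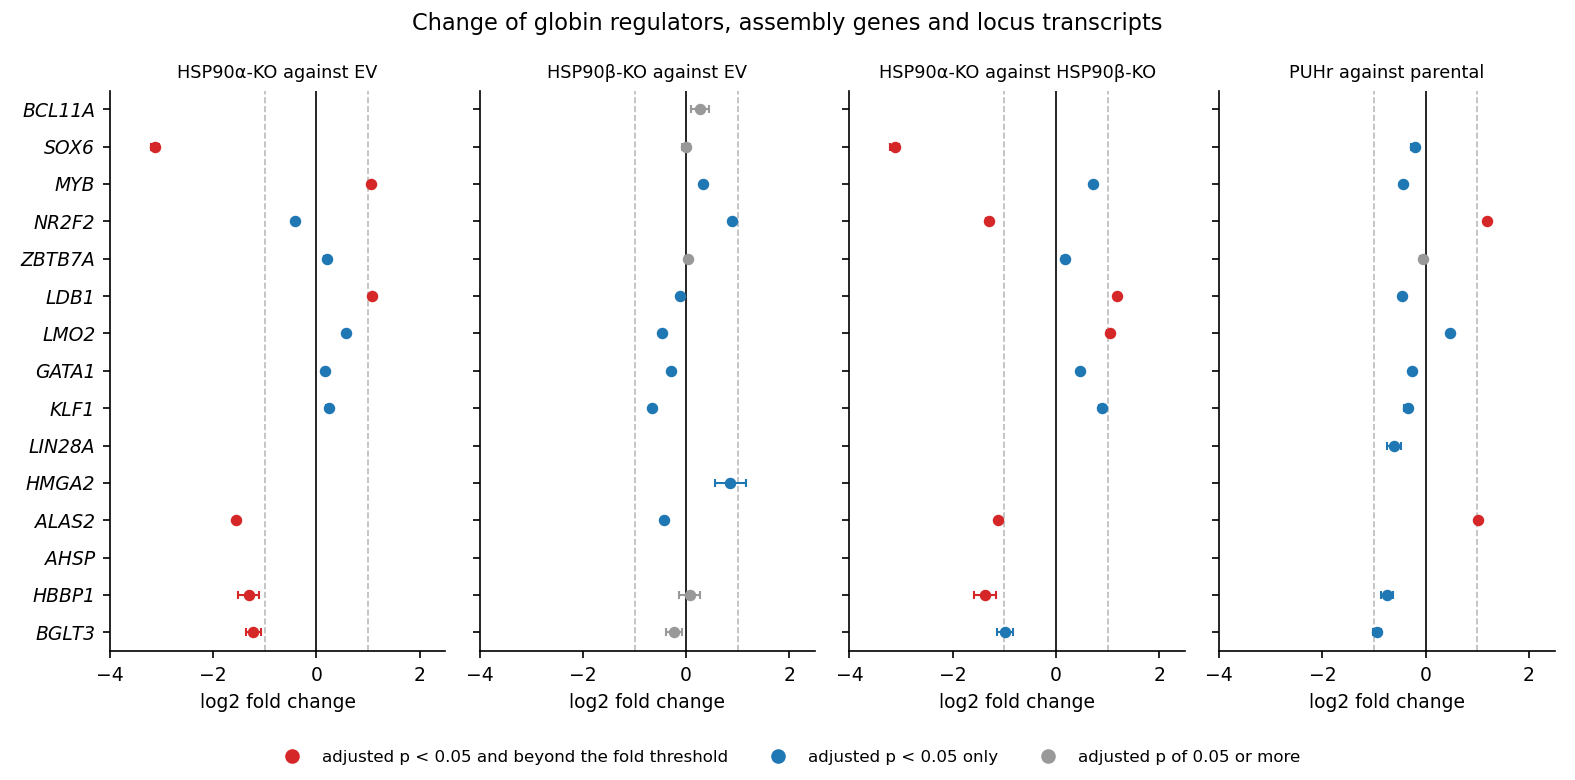
Log2 fold change (horizontal axis) with its standard error for named silencers, activators, fetal-program and haem genes and for HBBP1 and BGLT3, in the 4 comparisons; dashed lines mark a log2 change of -1 and 1, and a gene has no point where it was not tested or passed the filter on low values through only 1 of the groups compared (BCL11A, LIN28A, HMGA2 and AHSP). SOX6 lies beyond -1 in both HSP90α-KO comparisons, and ALAS2 lies below 0 in the 3 knockout comparisons and above 0 in PUHr.

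In HSP90β-KO, limma called 0 of 22 activators, 31 silencers, 5 fetal-program genes, 23 haem and assembly genes and 2 transcripts of the β cluster, while 8, 4, 0, 9 and 0 of these were lower and 1, 9, 1, 4 and 0 higher on the adjusted p alone. Of all genes, 2.65% were called lower and 1.83% higher there, and 17.2% passed in each direction on the adjusted p alone. NR2F2 was higher in HSP90β-KO than in EV by 0.89 on the log2 scale (SE 0.04, limma adjusted p = 5.8e-15), without passing the fold threshold.

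Genes beside the globin clusters were counted in the same way, against the same shares of all genes. Of 15 tested neighbours of the α cluster, 0 were called by limma in any of the 4 comparisons, with 5 lower and 2 higher on the adjusted p alone in HSP90α-KO and 5 lower and 5 higher in PUHr, and medians of -0.04 and 0.02. Of 16 tested genes of the wider chromosome 11 region, 0 were called in the 3 knockout comparisons, with 4 lower and 5 higher on the adjusted p alone and a median of -0.05 in HSP90α-KO. In PUHr 6 were lower and 9 higher on the adjusted p alone, with a median of 0.21. The 1 called in PUHr was TRIM22, an interferon-induced gene, at 2.15 CPM in parental and 11.1 in PUHr cells (2.32, SE 0.11, adjusted p = 2.5e-10), opposite to the β-like globins. The other globin family genes MB, CYGB, NGB and ADGB were in the resistance table, and 0 of the 4 passed the filter on low values.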

How the data were processed

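Total RNA of 15 K562 samples was captured as mRNA, made into stranded libraries and sequenced as single reads of 76 bases. Per the labels and the study's methods, the authors trimmed adapters, aligned the reads to GRCh38 with STAR, counted genes with featureCounts and normalized with edgeR; tool versions and counting options are not given in the sources used here. The deposited values are log2 CPM, 1 table for the knockout and 1 for the resistance experiment, which the authors made in edgeR with a prior count of 2. The prior was removed here, and whole reads were recovered by rounding. The largest deviation from a whole read was under 1e-06 reads, checked on the lower values only. Rows without an identifier (30 and 114; 0.027% to 0.0363% of reads) were left out. CPM, shares and sums use the values without the prior.

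Genes that reached a log2 CPM of -1 in 3 or more libraries (17039 and 16503) were tested with limma 3.58.1 in R 4.3.3. It used empirical Bayes with an intensity trend and Benjamini-Hochberg over all genes tested. The log2 values were fitted in this way in place of the study's count test. Called means an adjusted p under 0.05 and a log2 change beyond 1 or -1. The 9 knockout libraries shared 1 fit. EV serves both knockout comparisons. Sums, shares and ratios were compared by two-sided exact permutation tests. All members were named, with the called genes of each list (at most 6) or a fixed set of regulators. Members and lists were chosen with earlier results of these data known. Transcripts came from GENCODE release 44 and promoters from RefSeq. The fit was tested on simulated data. Alternatives covered filters, pseudocounts, scaling, the variance model, pairing, length and leaving out each library. Reads carry no molecular identifiers, so floors (3 reads) cover counting error only.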

Additional observations from a re-analysis of the deposited data

Results flagged for a closer look

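HBG2 was flagged as the 1 member called in the direct test between the knockouts. All 7 members passed the adjusted p there, so only the fold threshold sets HBG2 apart. Against the same EV libraries HBG2 changed by -1.22 in HSP90α-KO and by -0.02 in HSP90β-KO. The difference between these changes was -1.20 (SE 0.10, limma adjusted p = 1.5e-10, from the test that flagged it). It was lower in 3 of 3 HSP90α-KO libraries than in every HSP90β-KO library. Over the single libraries left out, the difference ranged from -1.29 to -1.04. HBG2 shares most of its sequence with HBG1, for which the same difference was -0.78, and the part of shared reads in the result was not tested.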

How the results depend on the processing

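Counts of called globins (with HBB in PUHr) depended on the fold threshold and on the pseudocount. On the adjusted p alone, 7 were lower in HSP90α-KO, 3 in HSP90β-KO, 7 in HSP90α-KO against HSP90β-KO and 6 in PUHr. Without HBB, which had to differ, PUHr had 5. Of all genes, 26.6%, 17.2%, 29.8% and 25.8% were lower in this way, in the same order. With log2(CPM + 1) HSP90α-KO had 2, and with log2(CPM + 5), which damps low genes, 0, with 0 between the knockouts and 1 in PUHr. A stricter filter, a mean log2 CPM of at least 1, left 1 in PUHr. Leaving out single libraries gave 3 to 4, 0 to 0, 1 to 1 and 2 to 3. The adult share turned in HSP90α-KO without HBA1, HBA2, HBG1 and HBG2 (-1.43; -2.19 against HSP90β-KO), in HSP90β-KO per kb (-0.095) and per countable window (-0.96), and in PUHr per countable window (1.93). Left-out libraries gave -0.16 to 0.77 for it in HSP90β-KO; the cause was not tested.

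Changes near 0 also turned: HBQ1 in HSP90β-KO with quantile normalization (-0.012) and median centring (-0.032), HBZ in PUHr with quantile normalization (0.067), and with left-out libraries HBG2 (-0.070 to 0.056), HBA1 (-0.088 to 0.039) and HBQ1 (-0.031 to 0.040) in HSP90β-KO and HBZ in PUHr (-0.089 to 0.048). HBZ passed there without PUHr replicate 2 (adjusted p = 0.0024). Voom on the recovered reads and the share per countable window were chosen after seeing the data.

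Over all tested genes, same-numbered libraries did not deviate together (correlations from -0.048 to 0.045). A value over all genes cannot show whether some genes deviate together, so pairing was not settled by it. With the replicate block, HBD in HSP90β-KO no longer passed (-0.32, adjusted p = 0.052) and HBQ1 in PUHr did (0.26, adjusted p = 0.036); calls of other globins kept their side. HBB and HBM are limited by depth, at 46 reads or fewer, and HBE1 by reads that another gene can claim.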

Other observations

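Among 11610 other tested genes (mean log2 CPM of at least 1), those whose log2 CPM followed the log2 summed globin level most closely over the 9 knockout libraries were COL18A1, COL6A3, PPOX, GOLGA2P10 and ASIC4, each with Pearson's r rounding to 0.996. PPOX, an enzyme late in haem synthesis, was at 56.2 CPM in EV, 33.8 in HSP90α-KO and 52.2 in HSP90β-KO. COL18A1, a collagen gene, had a mean log2 CPM of 8.27, 7.28 and 8.08 in the same order. Over the 6 libraries of the resistance table and 11639 genes, the closest were TINAGL1, SF3B1, RNF14, SLC10A4 and UBE2M, with r from 0.9977 to 0.9984. TINAGL1 had a mean log2 CPM of 2.15 in parental and 0.32 in PUHr cells. These values describe likeness within libraries that fall into groups and carry no test.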
